A study of Mus musculus with 8 samples.

Results

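Melanocyte stem cells of 21-day-old mice that could lose both B-raf and C-raf were compared with those of wild-type mice on 6 of the 8 arrays of the series. P21_KO holds 4 arrays and P21_WT holds 2, chosen by their titles, and 22180 genes were compared. P21_KO mice were B-raf fl/fl and C-raf fl/fl, P21_WT mice were B-raf +/+ and C-raf +/+, and both carried Tyr::Cre and the Z/EG reporter on a mixed C57Bl/6 and 129/Sv background. The remaining 2 arrays, P4_WT, hold melanoblasts of 4-day-old mice with the wild-type genotype and the same transgenes, and served to estimate the spread. Tyr::Cre acts where the tyrosinase promoter is active, so recombination was limited to cells with a history of that promoter. Cells were sorted from digested whole skin as positive for green fluorescent protein and negative for p75. The floxed alleles came from 129/Sv mice and the transgenes from C57Bl/6 mice. The labels call the arrays biological replicates, and P21_KO replicates 2, 3 and 4 share a number whose meaning is not stated, so p-values cover no more than the scatter of these samples, which may be technical.

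B-raf and C-raf are kinases that pass signals from RAS, switched on by receptors such as Kit and Met, to MEK and then to ERK. ERK activity raises the transcription of early response genes, of PEA3 group ETS factors and of its own inhibitors, the Sprouty and Spred proteins and the dual specificity phosphatases. In pigment cells the pathway acts on Mitf, the transcription factor that drives melanin enzymes, and melanocyte stem cells in the hair follicle renew the pigment cells of each hair.

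The values are log2 intensities made by RMA, and a value near 3.23, the median of all values on the arrays, is dim. Across genes the P21_WT arrays correlated at 0.969 with each other, the P21_KO arrays at 0.954 to 0.974, and arrays of different genotype at 0.950 to 0.977. P21_KO replicate 4 stood farthest from the rest on the first principal component of the 6 arrays (47.3, against -30.0 to 10.6). Among markers of the melanocyte lineage, Dct (8.76 to 10.72) and Sox10 (7.79 to 8.32) were bright in both genotypes. Mitf at 6.46 to 7.88, Pmel at 6.31 to 9.79, Kit at 5.86 to 8.86 and Tyr at 5.02 to 7.88 reached lower, each lowest in P21_KO. Ngfr, the gene of the sorted-out p75, read 4.76 to 5.62. Genes of myelinating Schwann cells were also bright, with Pmp22 at 10.81 to 11.06 and Mbp at 8.56 to 8.91, as were the keratinocyte genes Krt10 (9.17 to 10.53) and Krt14 (8.53 to 9.71). In these sorted populations, fewer cells of a type and less RNA per cell cannot be told apart.

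The targeted gene Braf read 5.99 and 7.20 in P21_WT and 6.57, 6.49, 6.30 and 5.66 in P21_KO. All but the lowest P21_KO array lay between the P21_WT arrays, and the difference of -0.34 ± 0.36 (SE) had a limma adjusted p of 0.944. Whether its probes fall inside the floxed exons is unknown, so the value is a weak check of the deletion. Araf, the gene of the RAF kinase that was not targeted, read 6.47 and 6.42 in P21_WT and 6.84, 6.80, 6.66 and 7.08 in P21_KO. Every knockout array lay above both wild-type arrays, by a mean of 0.40 ± 0.21 (SE, limma adjusted p = 0.832).

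The question is how expression in melanocyte stem cells differs when both kinases are lost. In P21_KO, melanin enzymes, the growth factor receptor gene Met, the ERK-induced ETS factor genes Etv5 and Etv1, the secreted matrix genes Thbs2, Ccn2 and Tinagl1, and 26 of 30 mitosis genes read lower than in P21_WT. The metallothionein gene Mt3, the linker histone gene H1f2, the enolase gene Eno2 and most immediate early genes read higher. No gene passed limma's test at an adjusted p under 0.05 (0 of 22180, or 0%), and the smallest adjusted p was 0.229. An unadjusted p under 0.05 was found for 1447 genes (6.52%), with 629 higher (2.84%) and 818 lower (3.69%). Without P21_WT replicate 1 there were 305 higher and 659 lower, and with each array centred on its median 729 higher and 715 lower. At an unadjusted p under 0.001 there were 49, of which 33 were lower. All 4 P21_KO arrays lay above both P21_WT arrays for 1720 genes (7.75%) and below both for 1694 (7.64%). The difference was above 0 for 51.4% of all genes and below 0 for 48.6%. Differences beyond 1 log2 unit were seen for 106 higher and 197 lower genes. Leaving out 1 array changed the count of passing genes to 15 without P21_WT replicate 2, to 2 without P21_WT replicate 1 and to 1 without P21_KO replicate 1. In the fit of all arrays no gene named here passed limma's test, and each direction describes these 6 arrays.

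**Figure D1:**
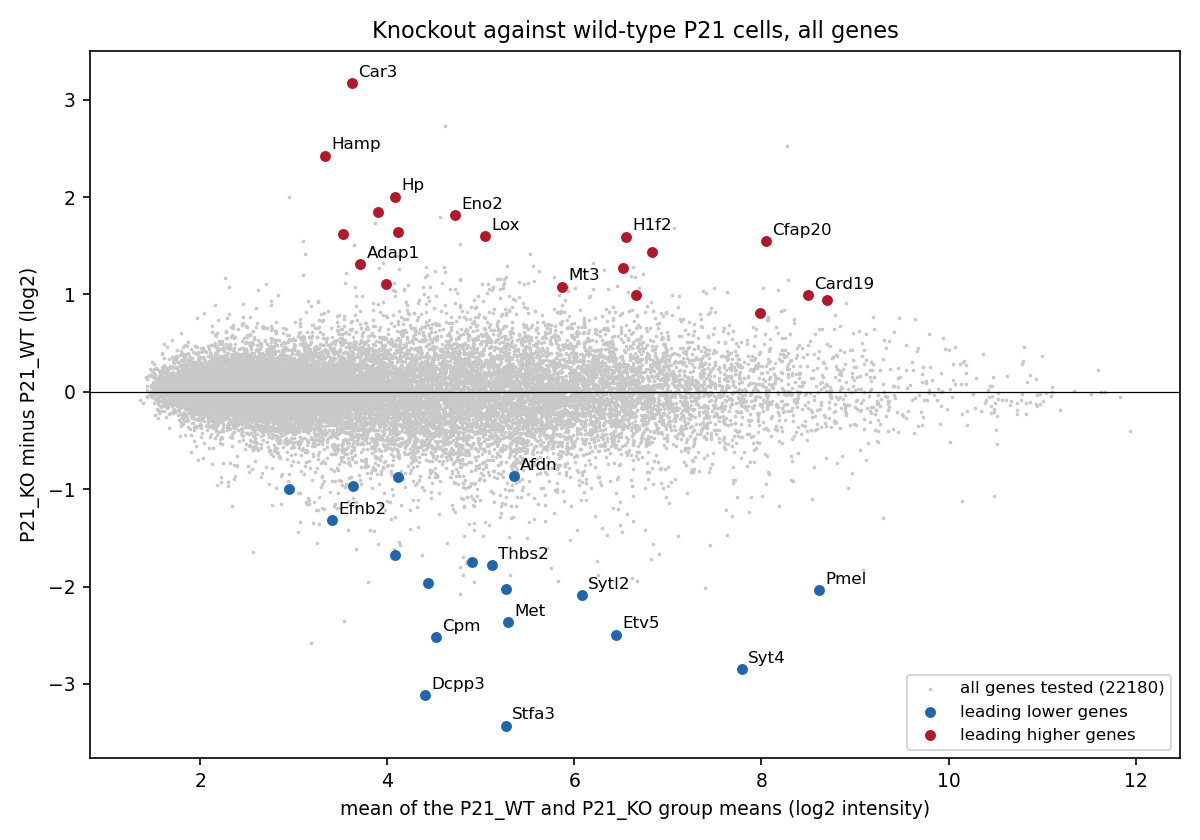
The difference between P21_KO and P21_WT group means (log2, vertical) is plotted against the mean of both group means (log2 intensity, horizontal) for all 22180 genes in grey, with the 18 leading lower genes in blue and the 19 leading higher genes in red. Syt4 and Pmel are bright genes with large negative differences, while Car3 and Hamp, with large positive differences, lie at the dim end.

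The leading genes are, in each direction, the 12 with the smallest p among genes whose groups do not overlap. Added to them are the 10 largest differences among such genes at an unadjusted p under 0.05. For these the brighter group lay above the median of all values. The rule gave 18 lower and 19 higher genes. Lack of overlap was a condition of entry for every leading gene, so it is no result for them. Limma's adjusted p lay between 0.229 and 0.284 for the 12 lower genes and between 0.284 and 0.383 for the 12 higher genes chosen by p. The gap between the nearest arrays of the groups was 0.68 to 1.88 log2 units for the former and 0.57 to 1.24 for the latter.

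Among the lower genes, Syt4 encodes a vesicle protein of the synaptotagmin family. It read 9.16 and 9.26 in P21_WT, against 7.28, 6.34, 6.05 and 5.78 in P21_KO. Each knockout array lay at least 1.88 log2 units below both wild-type arrays, and the means differed by -2.85 ± 0.36 (SE), a 7.19-fold difference (limma adjusted p = 0.233). Of 17 synaptotagmin genes measured, Syt4 was the 1 lower gene at an unadjusted p under 0.05 (3.69% of all genes). The list's median was -0.01 beside 0.01 over all genes. Sytl2, which encodes a synaptotagmin-like protein that links Rab27a to melanosome transport, read 6.92 and 7.32 in P21_WT and 6.23, 5.10, 4.92 and 3.91 in P21_KO. Its groups were apart by 0.70, with a difference of -2.09 ± 0.52 (SE, limma adjusted p = 0.565).

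Cpm, the gene of a membrane carboxypeptidase that trims basic residues from peptides, read 6.14 and 5.42 in P21_WT. In P21_KO it read 3.03, 3.58, 3.31 and 3.11. The knockout arrays were close to the median of all values and 1.84 below the nearer wild-type array, with a difference of -2.52 ± 0.31 (SE, limma adjusted p = 0.229). Dpp4, another membrane peptidase gene, read 3.40 and 3.51 in P21_WT and 2.42, 2.51, 2.62 and 2.27 in P21_KO, so its size near the floor is not well measured.

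Secreted matrix proteins made up a further set. Thbs2, the gene of an extracellular glycoprotein that restrains vessel growth, read 6.29 and 5.74 in P21_WT and 4.24, 4.14, 4.48 and 4.06 in P21_KO. The knockout arrays were tightly grouped (4.23 ± 0.18, SD, n = 4) and 1.26 below the nearer wild-type array. Ccn2, the gene of connective tissue growth factor, read 5.92 and 5.64 in P21_WT and 4.10, 4.29, 3.80 and 3.94 in P21_KO. Its difference was -1.74 ± 0.26 (SE, limma adjusted p = 0.284). Tinagl1, the gene of a matrix glycoprotein, read 5.06 and 4.78 against 3.58, 2.81, 3.38 and 3.21, again with every knockout array below.

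Of the 19 thrombospondin and matricellular genes, 6 were lower and 1 was higher at an unadjusted p under 0.05, beside 3.69% and 2.84% of all genes. Thbs2, Ccn2 and Tinagl1, among the 6, were picked by p on these same arrays, so the count gives no separate support. The median was -0.05 and the mean -0.57. With any 1 P21 array left out the median was -0.36 (without P21_WT replicate 2) to -0.12, and it was -0.83 without dim genes. The lower members at that threshold were 4 without P21_WT replicate 1 and 9 without P21_KO replicate 1. Besides those named, and chosen after their values were seen, Sparcl1 (-1.67 ± 0.35), Fn1, the fibronectin gene (-1.55 ± 0.47), and Postn, the periostin gene (-1.09 ± 0.35), were lower, and Thbs3 (0.61 ± 0.24) was higher (± SE). Ccn1, the close relative of Ccn2, went the other way, with 9.20 and 8.98 in P21_WT and 9.54, 9.23, 10.06 and 10.55 in P21_KO. The P21_WT arrays differed more from each other than the group means did in Fn1 (6.29 and 4.53) and in Postn (9.10 and 7.76), and the groups overlapped in Postn. Without P21_WT replicate 1 the difference was -0.67 for Fn1 and -0.41 for Postn. Fibroblast markers as a list had a mean of 5.75 and 5.58 in P21_WT and 5.36 to 5.84 in P21_KO, and their part in these differences was not tested.

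Cell surface and junction genes were also among the leading lower ones. Efnb2, the gene of the guidance ligand ephrin-B2, read 4.19 and 3.94 in P21_WT and 2.58, 2.82, 2.80 and 2.80 in P21_KO. Its knockout values lay below the median of all values. Afdn, the gene of the junction protein afadin, read 5.83 and 5.75 against 5.00, 5.02, 4.83 and 4.83. Both groups were narrow, and the difference was -0.87 ± 0.14 (SE, limma adjusted p = 0.284). Gpr37, an orphan receptor gene, differed by -1.97 ± 0.42 (SE) and Col20a1, a collagen gene, by -2.02 ± 0.42 (SE). Slitrk1, a neuronal membrane protein gene (-0.97), and Taco1, which aids the translation of a mitochondrial oxidase subunit (-0.87), had smaller differences with narrow groups. The P21_KO mean of Slitrk1 was below the median of all values.

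Stfa3 and Dcpp3 had the largest negative differences among the leading genes and wide spreads. Stfa3, the gene of a stefin A protease inhibitor, read 7.36 and 6.61 in P21_WT and 3.54, 1.99, 2.11 and 6.57 in P21_KO. P21_KO replicate 4 thus reached to within 0.04 of a wild-type array, and the SE of the -3.43 difference was 1.13. Its relative Stfa1 differed by -1.88 ± 0.66 (SE) with overlapping groups. Dcpp3, a salivary secretory protein gene, read 5.38 and 6.55 against 2.72, 3.19, 1.95 and 3.53, while its relative Dcpp1 differed by 0.02 ± 0.25 (SE). Both families hold near-identical genes, so the assignment of these probe sets is uncertain.

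**Figure D2:**
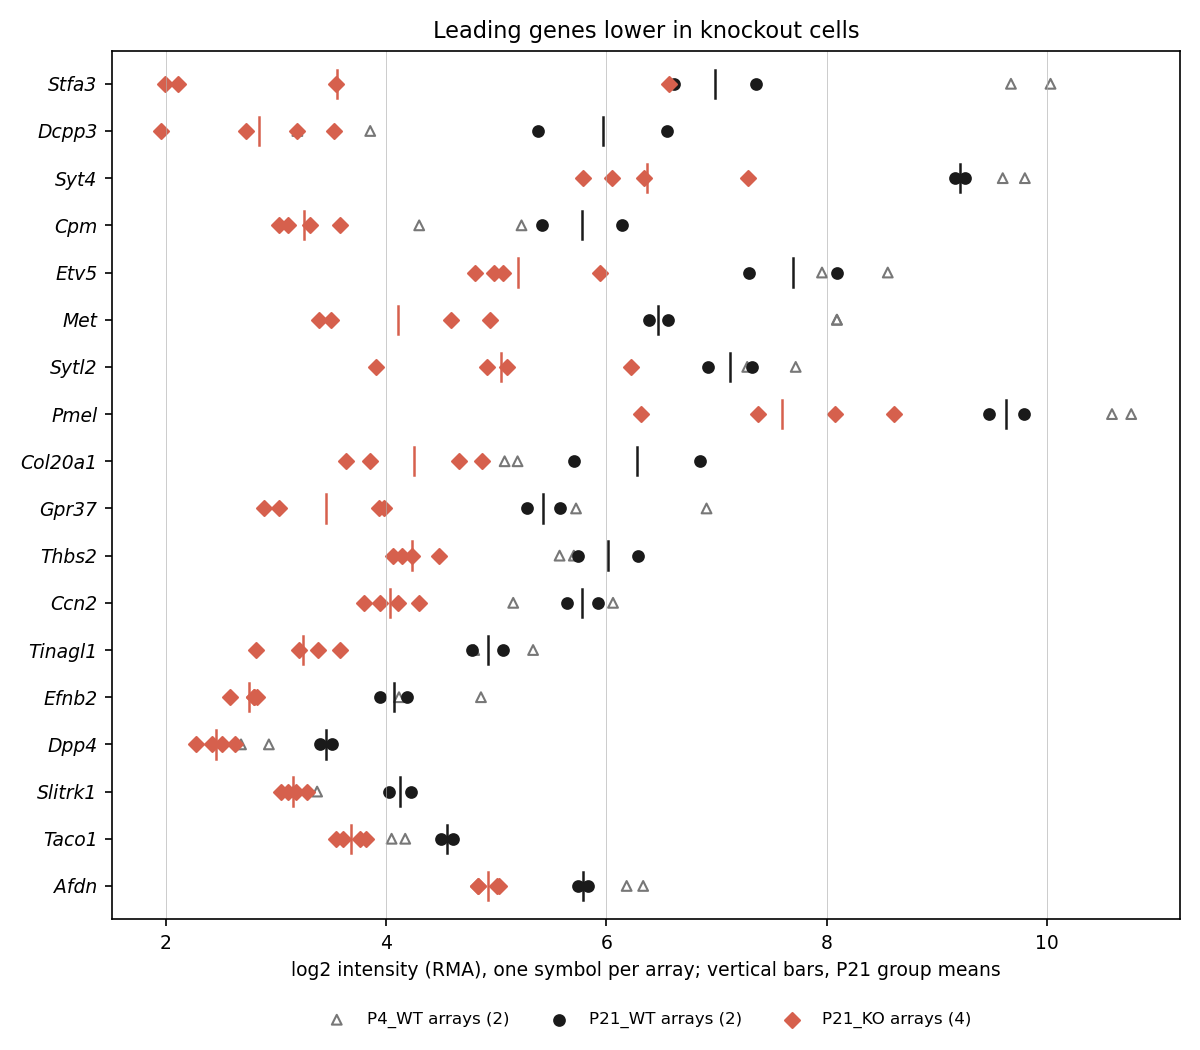
Log2 intensity (horizontal) of the 18 leading lower genes on each array, with P21_WT as black circles, P21_KO as red diamonds, P4_WT as open triangles, and vertical bars at the P21 group means. By the rule that chose the genes, all 4 diamonds lie left of both circles in each. The gap is narrow for Stfa3 (0.04) and wide for Syt4 (1.88) and Cpm (1.84).

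Among the leading higher genes, Mt3 encodes a metallothionein, a small protein that binds zinc and copper. It read 5.36 and 5.29 in P21_WT, against 6.05, 6.42, 6.57 and 6.58 in P21_KO. The groups were apart by 0.69 and differed by 1.08 ± 0.18 (SE, limma adjusted p = 0.284). The brighter metallothionein genes differed little, with Mt2 at 0.28 ± 0.20 and Mt1 at 0.12 ± 0.14, and Mt4 varied too widely to place (0.31 ± 1.29, SE). H1f2, a linker histone gene, read 5.53 and 5.98 against 6.90, 7.41, 7.55 and 7.53. It was the 1 of 5 linker histone genes at an unadjusted p under 0.05 (6.52% of all genes), and H1f5 differed by -1.18 ± 0.90 (SE) with overlapping groups. Histone genes are near-identical copies, so these probe sets are uncertain.

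Enzyme genes were also among them. Eno2, the gene of the neuronal form of the glycolytic enzyme enolase, read 3.71 and 3.92 in P21_WT and 5.52, 6.45, 5.16 and 5.38 in P21_KO. The difference of 1.81 ± 0.33 (SE) had a limma adjusted p of 0.329, and the median of 16 glycolysis genes was -0.01. Aldh6a1, which encodes a mitochondrial enzyme of valine breakdown, read 6.41 and 5.82 against 7.62, 7.69, 7.87 and 7.04. Prss23, a secreted serine protease gene, read 8.27 and 8.19 against 9.15, 9.25, 9.24 and 9.05, and Lox, whose product crosslinks collagen, read 4.28 and 4.21 against 5.81, 6.23, 6.35 and 4.98.

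Secreted factors and membrane traffic genes followed. Fstl3, whose product binds activins, read 5.64 and 6.13 in P21_WT and 6.88, 7.59, 7.15 and 7.01 in P21_KO. Fgf5, the gene of a growth factor that ends hair growth in the follicle, read 3.31 and 3.55 against 4.33, 4.39, 4.79 and 4.64. Adap1, which encodes a regulator of ARF proteins at the membrane, read 2.89 and 3.22 against 4.47, 4.41, 4.22 and 4.37. Its wild-type values lay below the median of all values. Plekhf1 (1.00 ± 0.17), a gene of endosomes and lysosomes, Clstn1 (0.81 ± 0.16), a vesicle membrane protein gene, Card19 (0.99 ± 0.17) and the cilium gene Cfap20 (1.55 ± 0.23) were also higher on every knockout array (± SE).

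Several leading higher genes with large differences were dim in P21_WT and uneven in P21_KO. Car3, a carbonic anhydrase gene of fat and muscle, read 2.01 and 2.06 in P21_WT and 5.06, 2.42, 5.95 and 7.40 in P21_KO. Hamp, the gene of the iron hormone hepcidin, read 2.08 and 2.16 against 2.19, 4.48, 5.24 and 6.26. Hp, the haptoglobin gene, read 3.33 and 2.83 against 3.85, 6.72, 4.57 and 5.20. In each case 1 knockout array was near the wild-type level, replicate 2 for Car3 and replicate 1 for Hamp and Hp. Zswim7, a DNA repair gene, read 2.91 and 3.04 against 5.11, 3.17, 5.80 and 5.23, with replicate 2 near wild type. Plin4, a lipid droplet gene, read 3.32 and 3.27 against 4.30, 6.40, 4.82 and 4.20, with every knockout array 0.89 or more above both. Adipocyte markers stood at a mean of 3.34 and 3.43 in P21_WT and 3.31 to 3.62 in P21_KO, and the defining marker Adipoq at 2.45 to 2.96 on all 6 arrays. Skeletal muscle markers had a mean of 3.75 and 3.01 in P21_WT and 2.94 to 3.24 in P21_KO.

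**Figure D3:**
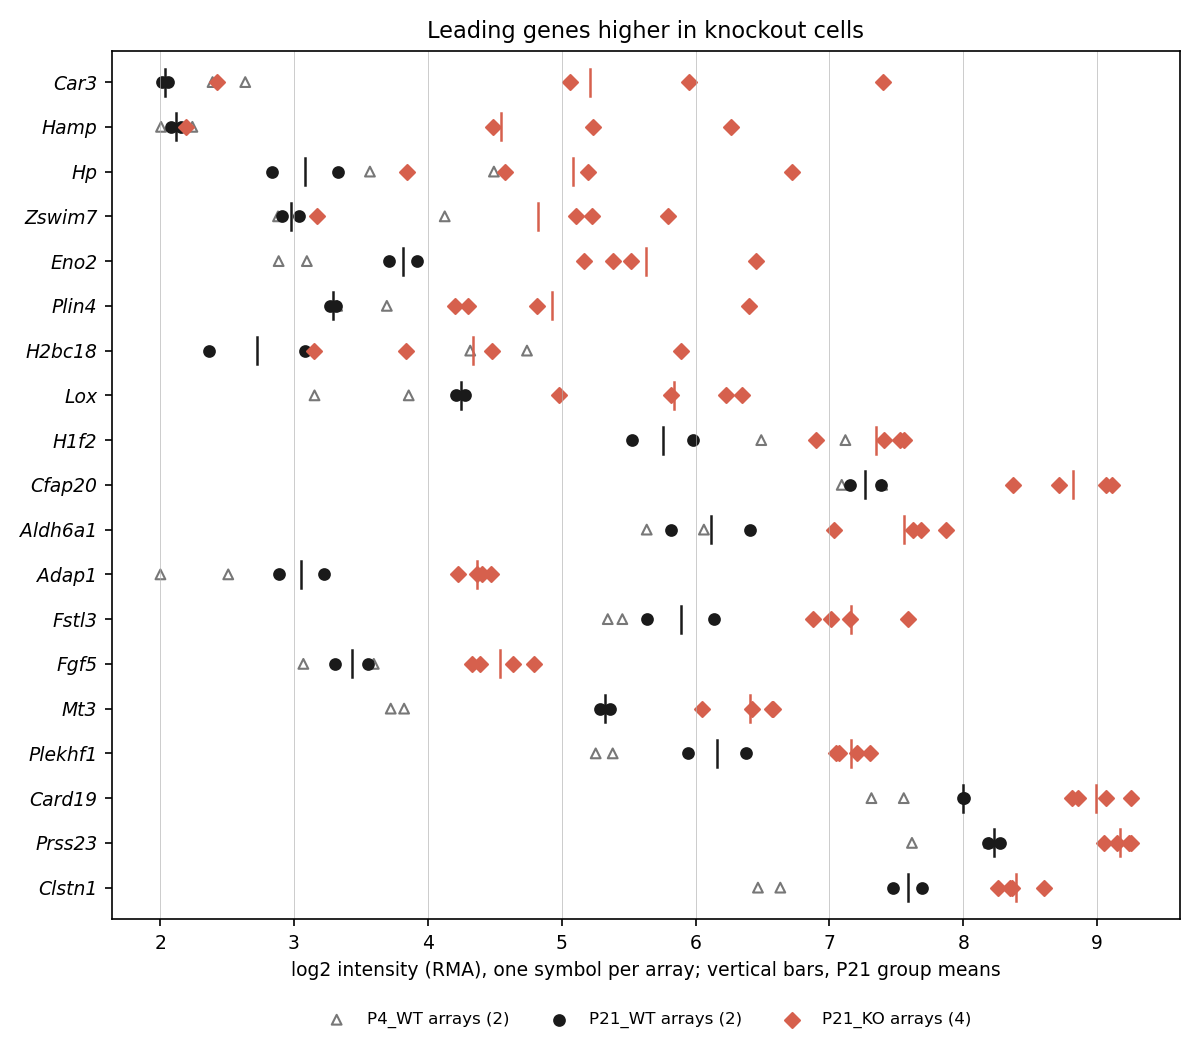
Log2 intensity (horizontal) of the 19 leading higher genes on each array, with P21_WT as black circles, P21_KO as red diamonds, P4_WT as open triangles, and vertical bars at the P21 group means. The diamonds are tight for Prss23, Card19 and Mt3 and spread over several log2 units for Car3, Hamp and Hp.

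The pathway itself was described from its components to its outputs. The 20 measured RAS-RAF-MEK-ERK components had a median of -0.01, with 10 lower and 10 higher, and 0 at an unadjusted p under 0.05 beside 6.52% of all genes. Map2k1, the gene of a MEK kinase, differed by 0.12 ± 0.17 (SE), and Rasa1, which encodes a RAS inhibitor, by -0.37 ± 0.21 (SE). Araf was the 1 member above wild type on every knockout array, and 1 member was below.

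PEA3 group ETS factors, transcription factors whose genes respond to ERK, were lower on every knockout array. Etv5 read 8.10 and 7.29 in P21_WT and 5.94, 4.81, 4.98 and 5.06 in P21_KO. The difference of -2.50 ± 0.36 (SE), a 5.64-fold difference, had a limma adjusted p of 0.284. Etv1 read 6.10 and 6.05 against 5.37, 5.52, 4.87 and 5.57, a difference of -0.75 ± 0.21 (SE, limma adjusted p = 0.587). The Etv1 row with the largest variance gave -1.90. Etv4 was dim throughout (2.53 to 2.96) and differed by -0.21.

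ERK feedback genes did not follow as a group. Of 14 measured, 1 was lower and 0 were higher at an unadjusted p under 0.05 (3.69% and 2.84% of all genes). The median of -0.01 turned positive under other scalings of the arrays (up to 0.02). Spry4, a Sprouty inhibitor gene, read 3.81 and 4.32 in P21_WT and 2.74, 2.53, 3.22 and 3.00 in P21_KO. Those knockout values lay below the median of all values. Dusp6, the gene of the ERK phosphatase, read 9.55 and 9.28 against 9.45, 9.04, 9.52 and 9.25, with full overlap. Spry2 differed by -0.61 ± 0.37, Spred2 by -0.49 ± 0.24 and Dusp5 by 0.49 ± 0.24 (SE). Of 18 other ERK-induced genes, 3 were lower at an unadjusted p under 0.05 (3.69% of all genes), and the list's median was 0.02. The 3 were Elk3 (-0.92 ± 0.24), Il11 (-0.50 ± 0.13) and Phlda1 (-0.43 ± 0.14, SE). Il11 was dim on all arrays (2.31 to 2.84).

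Immediate early genes, which cells switch on within minutes of a stimulus or of dissociation, were mostly higher. Of 17 measured, 15 were higher, 6 had every knockout array above both wild-type arrays (7.75% of all genes did), and the median was 0.43. Nr4a2 read 9.14 and 9.06 in P21_WT and 9.46, 9.62, 9.88 and 9.52 in P21_KO, and Nr4a1 read 10.02 and 9.64 against 10.19, 10.27, 10.32 and 10.41. The list's mean was 8.55 and 8.16 in P21_WT and 8.56 to 8.78 in P21_KO, so P21_WT replicate 1 reached the knockout range. Without P21_WT replicate 2 the median was 0.12, and 5 members were lower.

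All 8 measured melanin enzyme and melanosome matrix genes were lower, 7 of them on every knockout array (7.64% of all genes were) and at an unadjusted p under 0.05 (3.69%). The median was -1.49, beside 0.01 over all genes. It was -1.25 without P21_KO replicate 4, and from 3 to 7 members stayed under 0.05 when 1 P21 array was left out. Tyr encodes the rate-limiting enzyme tyrosinase, whose promoter also drives the Cre transgene. It read 7.88 and 7.27 in P21_WT and 6.36, 5.90, 5.39 and 5.02 in P21_KO (-1.91 ± 0.35 SE, limma adjusted p = 0.368). Every knockout array was 0.92 or more below both wild-type arrays.

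Tyrp1, which encodes an enzyme that stabilises tyrosinase, was closer between groups, with 9.51 and 9.42 against 9.38, 8.84, 8.49 and 8.35. Dct, the dopachrome tautomerase gene and an early marker of the lineage, read 10.69 and 10.72 in P21_WT and 10.24, 9.96, 9.38 and 8.76 in P21_KO. Pmel, whose product forms the fibrils of the melanosome, read 9.79 and 9.47 against 8.61, 8.08, 7.38 and 6.31. Mlana, a partner of Pmel in melanosome maturation, read 10.20 and 9.80 against 9.57, 8.00, 7.68 and 7.43. In these 3 genes P21_KO replicate 1 was nearest to wild type and replicate 4 farthest. Tspan10, a tetraspanin gene (-1.68 ± 0.39), and Gpnmb, a melanosome glycoprotein gene (-1.29 ± 0.45, SE), were lower too. Cd63, a tetraspanin of melanosomes and of endosomes in most cells, differed by only -0.14 ± 0.13 (SE).

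The promoters of these enzymes hold an element that Mitf is known to bind. RefSeq's promoter table (build GRCm38.p6) matched 6 of the 8 genes, all but Pmel and Mlana. CATGTG stood on 1 strand or the other in the 250 bases before the start of 4 of them: Tyr, Tyrp1, Dct and Tspan10. Gpnmb, which was lower too, and Cd63 did not hold it. CATGTG stood in 12.3% of all 32851 promoters of that length. Met is shown beside them for its palindromic relative CACGTG (6.02% of promoters) and for TGANTCA, the letters bound by AP-1 (6.75%). Neither CATGTG nor CACGTG overlaps another match here. In each sequence below, printed along the gene's strand and ending at the base before its start, capitals mark these motifs, read on either strand. The windows are chr7:87493513-87493762 (Tyr, minus strand), chr4:80833963-80834212 (Tyrp1, plus), chr14:118052247-118052496 (Dct, minus), chr11:120442381-120442630 (Tspan10, plus) and chr6:17463707-17463956 (Met, plus).
Tyr: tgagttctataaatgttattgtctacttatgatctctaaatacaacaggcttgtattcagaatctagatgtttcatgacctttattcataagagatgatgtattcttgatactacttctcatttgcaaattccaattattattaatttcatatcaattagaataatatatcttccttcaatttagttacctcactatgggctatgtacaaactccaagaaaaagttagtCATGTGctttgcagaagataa
Tyrp1: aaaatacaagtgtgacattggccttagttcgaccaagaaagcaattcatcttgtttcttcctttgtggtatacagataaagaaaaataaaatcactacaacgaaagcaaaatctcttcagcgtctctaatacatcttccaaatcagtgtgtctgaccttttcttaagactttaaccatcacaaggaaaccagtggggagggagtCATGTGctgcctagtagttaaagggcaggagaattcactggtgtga
Dct: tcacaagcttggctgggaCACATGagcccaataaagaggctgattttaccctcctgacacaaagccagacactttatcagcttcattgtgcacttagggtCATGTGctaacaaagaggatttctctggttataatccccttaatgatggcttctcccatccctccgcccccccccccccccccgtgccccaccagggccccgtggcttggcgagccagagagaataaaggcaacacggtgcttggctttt
Tspan10: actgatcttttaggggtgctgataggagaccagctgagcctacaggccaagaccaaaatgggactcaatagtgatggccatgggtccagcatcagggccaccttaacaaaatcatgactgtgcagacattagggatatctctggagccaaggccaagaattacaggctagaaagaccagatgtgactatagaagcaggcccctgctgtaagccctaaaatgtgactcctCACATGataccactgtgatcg
Met: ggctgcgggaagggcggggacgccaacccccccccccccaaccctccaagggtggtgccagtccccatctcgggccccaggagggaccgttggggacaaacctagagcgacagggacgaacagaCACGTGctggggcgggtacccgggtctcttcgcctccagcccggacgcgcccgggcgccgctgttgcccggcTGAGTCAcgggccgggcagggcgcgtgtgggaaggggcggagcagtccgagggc
The match began 21 bases before the start in both Tyr and Tspan10, 46 before it in Tyrp1, and 232 and 150 before it in Dct. CCGGAAG, letters bound by ETS factors (6.91% of promoters), stood in none of the 5. A match is a description of the letters, and binding was not measured.

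The other melanosome genes were lower to a lesser degree. Of 10 ion transport and pigment receptor genes all were lower (48.6% of all genes), 3 at an unadjusted p under 0.05 (3.69%), with a median of -0.48. Mcoln3, the gene of an endosomal channel, read 8.95 and 8.60 in P21_WT and 8.37, 7.87, 7.40 and 6.77 in P21_KO, and Slc45a2, a melanosome transporter gene, differed by -1.17 ± 0.57 (SE) with overlapping groups. The copper pump gene Atp7a (-0.45) and the transporter gene Slc6a17 (-0.53) differed less. Among 23 transport and biogenesis genes 14 were lower, 2 at an unadjusted p under 0.05 (3.69% of all genes), and the median was -0.05. Rab32, a GTPase gene of melanosome cargo delivery, read 5.33 and 5.16 against 3.92, 4.37, 5.06 and 4.15, and Myo5a, the motor that carries melanosomes, 8.00 and 8.34 against 7.59, 7.86, 7.40 and 6.22. Hps4, a biogenesis gene, was higher by 0.63 ± 0.28 (SE).

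**Figure D4:**
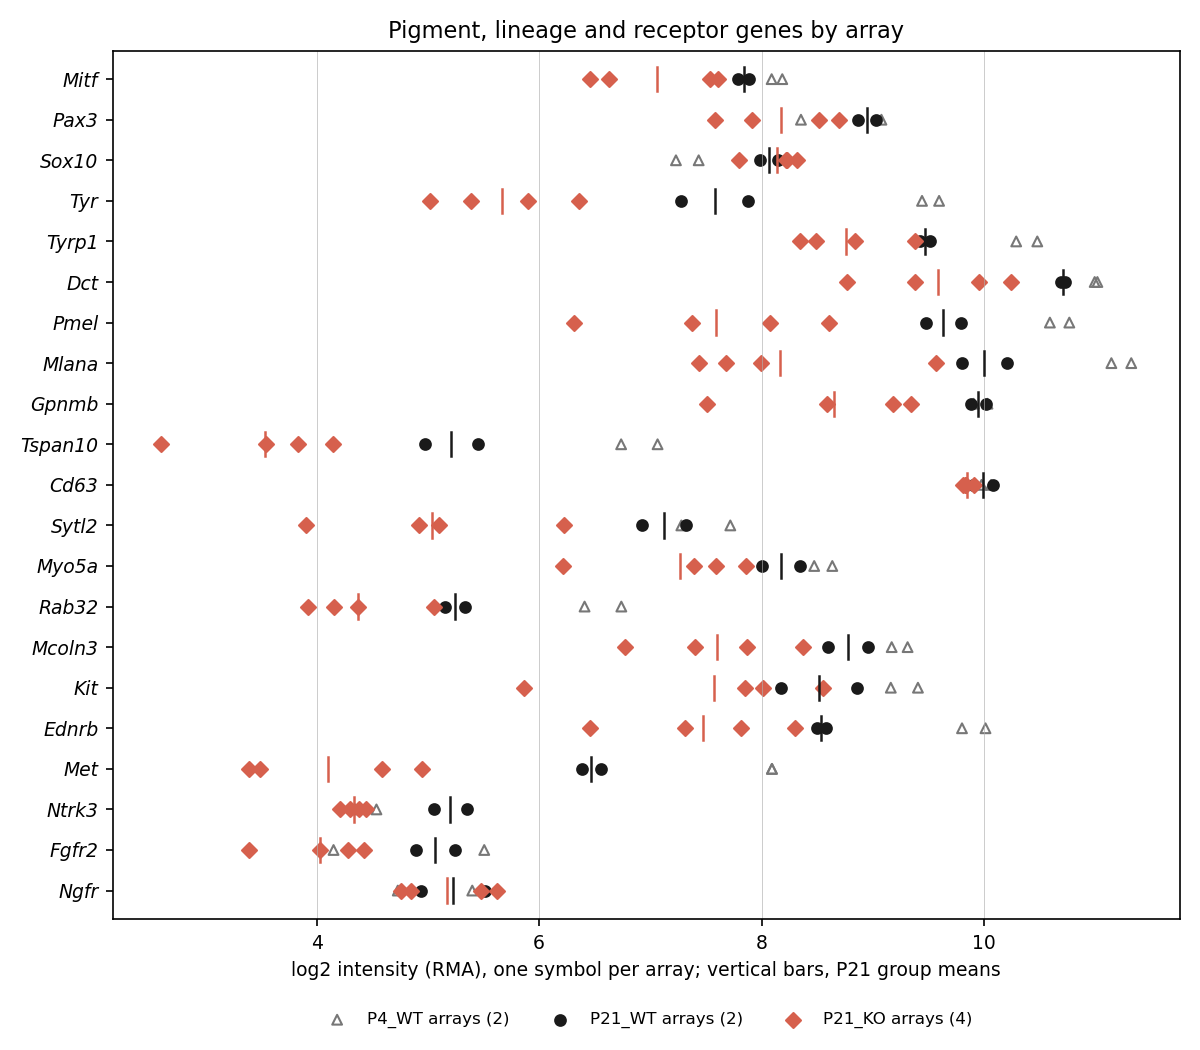
Log2 intensity (horizontal) of lineage factors, melanosome genes and receptors on each array, with P21_WT as black circles, P21_KO as red diamonds, P4_WT as open triangles, and vertical bars at the P21 group means. Tyr, Pmel, Dct and Met show all knockout arrays below wild type, while Sox10, Cd63 and Ngfr overlap.

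Lineage transcription factors were lower in 17 of 24 cases, 7 at an unadjusted p under 0.05 (3.69% of all genes) and 9 on every knockout array (7.64%), with a median of -0.36. The 7 became 3 without P21_WT replicate 2 or P21_KO replicate 4, 4 without P21_WT replicate 1 or P21_KO replicate 3, and 9 without P21_KO replicate 1. Mitf read 7.88 and 7.79 in P21_WT and 7.53, 7.61, 6.62 and 6.46 in P21_KO, a difference of -0.78 ± 0.34 (SE, limma adjusted p = 0.766). Pax3, which acts upstream of Mitf, read 9.03 and 8.87 against 8.70, 8.51, 7.92 and 7.58. In both genes replicates 3 and 4 were farther from wild type than replicates 1 and 2. Sox10, a further activator of Mitf, did not separate the groups, with 7.99 and 8.14 against 8.22, 8.32, 7.79 and 8.22 (0.07 ± 0.18 SE). Lef1, a Wnt effector gene, read 4.72 and 4.99 against 4.15, 4.13, 3.83 and 3.40. Twist1 (-0.75 ± 0.23), a gene of mesenchymal state, Cited1 (-0.65 ± 0.19), a coactivator gene, and Tfap2b (-0.46 ± 0.18, SE) were lower too.

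Receptors varied by gene. Of 24 receptor and ligand genes 4 were lower at an unadjusted p under 0.05 (3.69% of all genes), 2 without either P21_WT array, and the median was -0.10. Met, the receptor for hepatocyte growth factor and itself a Mitf target in melanocytes, read 6.56 and 6.38 in P21_WT and 4.59, 4.94, 3.49 and 3.39 in P21_KO. The difference of -2.37 ± 0.43 (SE), a 5.15-fold difference, had a limma adjusted p of 0.329. Ntrk3, the gene of the neurotrophin receptor TrkC, read 5.05 and 5.35 against 4.38, 4.44, 4.21 and 4.30. Its groups were narrow and apart, with the same adjusted p of 0.329. Ednrb, the endothelin receptor gene of melanoblasts, read 8.58 and 8.50 against 8.30, 7.81, 7.31 and 6.46, and Fgfr2 differed by -1.03 ± 0.40 (SE). Kit, the stem cell factor receptor gene, read 8.86 and 8.18 against 8.56, 8.02, 7.85 and 5.86. Its groups overlapped, and without P21_KO replicate 4 the difference of -0.95 was -0.38.

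Cell division genes were dim in both genotypes and lower in P21_KO. Of 30 mitosis genes 26 were lower, 7 at an unadjusted p under 0.05 (3.69% of all genes), with a median of -0.36. The 7 became 4 without P21_WT replicate 2 or P21_KO replicate 3 or 4, and 11 without P21_KO replicate 1. Cdk1, the kinase gene of mitotic entry, read 3.73 and 3.60 in P21_WT and 3.15, 2.72, 2.84 and 3.00 in P21_KO. Tpx2, a spindle gene, read 3.34 and 3.52 against 2.97, 2.85, 2.66 and 2.84, so both genes were near or below the median of all values and their sizes are not well measured. Mki67, the gene of the proliferation marker Ki-67, read 4.76 and 4.82 against 4.94, 3.82, 3.76 and 4.32, with P21_KO replicate 1 above wild type. Bub1 (-0.73) and Birc5 (-0.49) were lower as well. Group means below the median of all values were found in both groups for Birc5 and in P21_KO for Bub1.

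Earlier steps of the cycle were brighter. Cdk2, the kinase gene of entry into DNA synthesis, read 8.42 and 8.13 in P21_WT and 7.65, 7.49, 6.57 and 7.07 in P21_KO (-1.08 ± 0.29 SE, limma adjusted p = 0.571). E2f3, a transcription factor gene of the same step, read 3.41 and 4.27 against 3.16, 2.76, 2.17 and 2.42, with knockout values below the median of all values. Of 19 G1 cyclin, kinase and E2F genes 15 were lower (48.6% of all genes), 4 at an unadjusted p under 0.05 (3.69%), with a median of -0.27. Of 26 DNA replication genes 17 were lower (median -0.13), Cdt1 at -0.63 ± 0.18 and Mcm6 at -0.41 ± 0.23 (SE) among them. Only 1 of the 26 (3.85%) was lower at that threshold, near the share of all genes. Inhibitors of the cycle and quiescence genes leaned the other way, with 13 of 21 higher and a median of 0.15. At an unadjusted p under 0.05 were 4 higher genes and 1 lower gene (2.84% and 3.69% of all genes). The 4 higher genes became 0 without P21_WT replicate 1 and 2 without P21_WT replicate 2. Cdkn1a, the p21 gene, read 9.78 and 9.79 against 10.30, 10.31, 10.13 and 10.11. Cdkn2d, a CDK4 and CDK6 inhibitor gene, read 4.74 and 6.04 against 6.50, 6.68, 6.33 and 6.34. Its difference of 1.08 ± 0.33 (SE) was 0.43 without P21_WT replicate 1 and 1.73 without P21_WT replicate 2. Klf9, a gene of circadian and stress control, differed by 0.87 ± 0.23 (SE).

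Survival genes were mixed. Bcl2l1, the gene of the survival factor Bcl-xL, read 5.36 and 5.47 in P21_WT and 5.90, 6.08, 6.37 and 6.57 in P21_KO. Every knockout array was higher, with a difference of 0.82 ± 0.20 (SE, limma adjusted p = 0.565). Bak1, the gene of a pore-forming death factor, read 7.62 and 7.38 against 7.19, 6.21, 5.58 and 7.32. Of 15 BCL2 family genes 9 were lower and the median was -0.01, and it was 0.01 with each array centred on its median. Among 21 genes of p53 and its targets 2 were higher at an unadjusted p under 0.05 (2.84% of all genes). These were Cdkn1a and the stress gene Gadd45b, which differed by 0.74 ± 0.21 (SE). Of 13 heat shock genes 12 were higher with a median of 0.14, and Dnajb1 differed by 0.58 ± 0.24 (SE).

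Adhesion and signalling genes held single members of interest. The collagen receptor genes Itga1 and Itga2 were lower. Itga1 read 5.04 and 5.31 in P21_WT and 4.61, 4.12, 4.03 and 4.24 in P21_KO, and Itga2 differed by -1.48 ± 0.49 (SE). Collagen genes Col4a2 (0.66 ± 0.22) and Col15a1 (0.50 ± 0.17, SE) were higher, against a median of -0.05 over 27 collagen and laminin genes. Of 40 Wnt genes 5 were lower and 0 higher at an unadjusted p under 0.05 (3.69% and 2.84% of all genes), with a median of -0.07. Ctnnb1, the beta-catenin gene, read 8.26 and 8.20 against 7.85, 7.58, 7.32 and 7.30. The Wnt receptor genes Lrp5 (-0.76 ± 0.22) and Fzd1 (-0.67 ± 0.17, SE) were lower on every knockout array. Smad3, a TGF-beta effector gene, read 3.21 and 3.39 against 2.47, 2.52, 2.14 and 2.59, with knockout values below the median of all values. In the Notch list Hes1 differed by -0.49 ± 0.18 and Hey2 by -0.65 ± 0.32 (SE).

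Housekeeping groups showed small shifts. Of 37 cytosolic ribosomal protein genes 30 were lower and 15 were so on every knockout array (7.64% of all genes). The median was -0.19 (-0.20 to -0.12 with 1 P21 array left out), and 3 were lower at an unadjusted p under 0.05 (3.69%). Rpl10a read 9.43 and 9.68 in P21_WT and 9.39, 9.12, 9.06 and 9.03 in P21_KO. Of 32 oxidative phosphorylation genes 27 were lower (median -0.19), and Ndufa4 read 9.29 and 9.48 against 8.81, 8.28, 8.64 and 8.45 (-0.84 ± 0.18 SE, limma adjusted p = 0.479). Of 26 vacuolar ATPase and cathepsin genes 21 were lower (median -0.15), with Atp6v0e at -0.68 ± 0.21 and Ctsh at -0.66 ± 0.21 (SE). Of 29 proteasome genes 19 were lower (median -0.12), and of 19 cholesterol synthesis genes 14 were higher (median 0.15, and 0.02 without P21_KO replicate 1). Interferon response genes had a median of -0.19, which was -0.03 without P21_WT replicate 2 and -0.32 without P21_WT replicate 1, with Gbp3 at -0.75 ± 0.19 and the antigen transporter gene Tap1 at -0.69 ± 0.21 (SE).

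**Figure D5:**
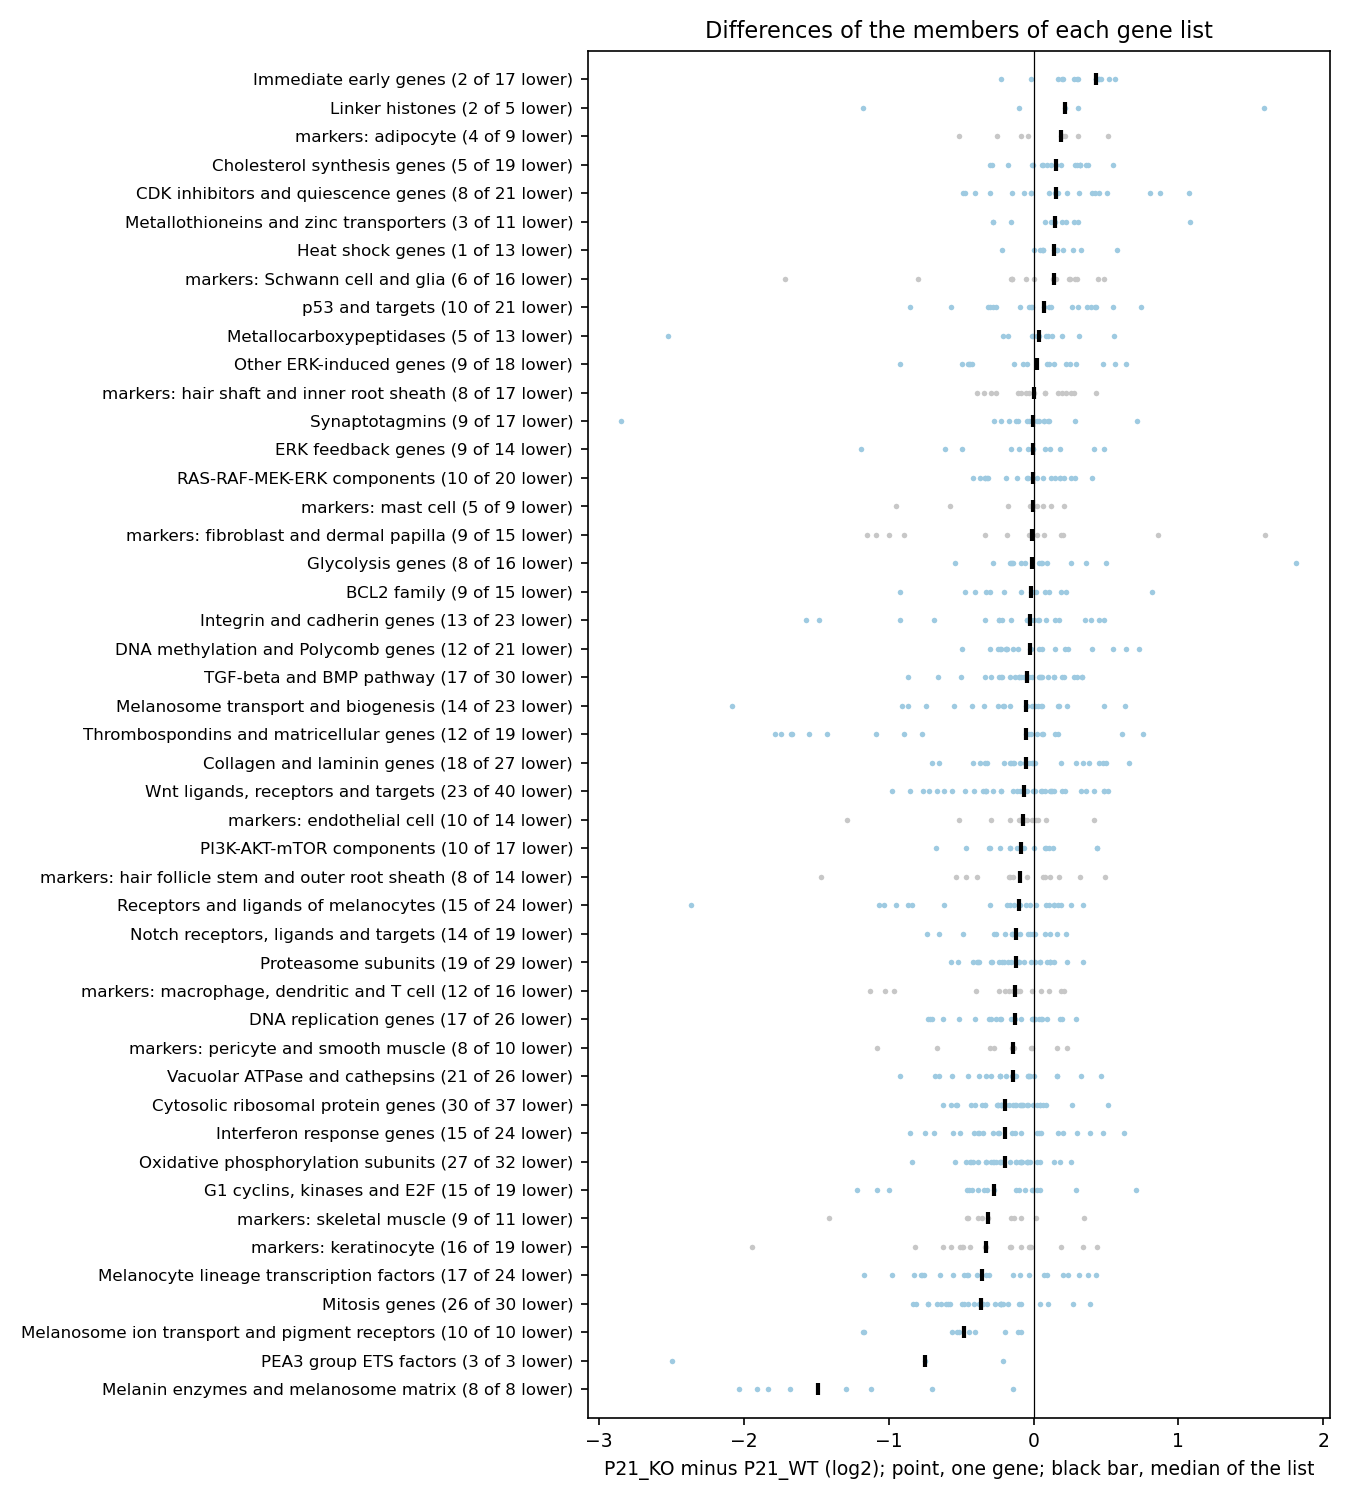
Difference between P21_KO and P21_WT (log2, horizontal) for each measured member of each gene list (points, grey for markers of other cell types), with the list's median as a black bar and the count of lower members beside its name. Melanin enzymes (median -1.49) and PEA3 factors (-0.75) lie lowest, and immediate early genes (0.43) highest.

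Markers of other skin cells were summed on each array. Keratinocyte markers were lower in 16 of 19 cases, with a median of -0.33, which was -0.57 without P21_KO replicate 4 and -0.14 without P21_KO replicate 2. The list's mean was 6.66 and 6.67 in P21_WT and 6.26, 6.07, 6.34 and 6.70 in P21_KO, so P21_KO replicate 4 equalled wild type, and Krtdap differed by -0.09 ± 0.30 (SE). Krt17, a gene of the outer root sheath, read 8.48 and 8.26 against 6.87, 7.34, 6.55 and 6.83. Schwann cell and glial markers had a mean of 7.26 and 7.24 in P21_WT and 7.07 to 7.50 in P21_KO. Of 16 measured, 10 were higher (51.4% of all genes), with a median of 0.14. Every knockout array lay above both wild-type arrays for 5 (7.75% of all genes) and below both for 1 (7.64%). Within this list Fabp7, a gene of immature glia, read 7.22 and 8.14 against 6.99, 6.13, 5.43 and 5.28. The myelin genes Mal (0.30 ± 0.19) and Drp2 (0.45 ± 0.16, SE) leaned higher. Endothelial markers had a mean of 3.21 to 3.45 on all 6 arrays and macrophage, dendritic and T cell markers 3.07 to 3.56, both near the median of all values. Eng, a TGF-beta co-receptor gene of the endothelial list, read 5.93 and 6.05 against 4.93, 5.18, 4.57 and 4.13. The part of these cells in the differences above was not tested.

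Braf lies on chromosome 6, where sequence of the 129/Sv strain may have stayed linked to the floxed allele. Of 1201 genes tested there, 24 were higher and 55 lower at an unadjusted p under 0.05, together 6.58%, within the 4.78% to 8.56% of all chromosomes. Among the 40 tested genes nearest to Braf 2 were lower at that threshold. Met, Gpr37, Gpnmb, Mitf, Ndufa4 and Eno2 lie on chromosome 6, and for them the deletion and the strain of the linked region cannot be told apart.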

How the data were processed

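RNA of cells sorted from dissociated skin was extracted, amplified as complementary DNA with the Ovation PicoSL WTA system and hybridised to mouse gene arrays, per the labels' protocols. The deposited log2 values are the authors' RMA output, which subtracts background, brings arrays to one distribution and summarises each probe set; the submitters' processing notes name Affymetrix Expression Console. Neither version is stated. RMA compresses differences near the floor. The platform annotation gave exactly 1 symbol for 23521 of 41345 rows, several for 1814 and none for 16010. Each of 22180 genes was represented by its brightest row, by the mean of the 8 arrays. Of the single-symbol rows 23328 matched the mouse gene table (GRCm38.p6), used for names and chromosomes.

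A model of 3 groups over 8 arrays was fitted by lmFit and eBayes of limma 3.58.1 under R 4.3.3, with 5 residual degrees of freedom, and the contrast P21_KO minus P21_WT was tested on both sides with Benjamini-Hochberg adjustment over all genes. Precision is limited by how few arrays there are, P21_WT in particular. A fold is 2 to the power of the log2 difference. The members and lists were chosen with earlier results of these data known, and the lists carry no test. Besides the leading genes, which skip unnamed gene models, small RNAs and olfactory and immune receptor segments, the rule names the 2 members of each list with the smallest p (4 for the pathway, pigment, lineage, receptor, mitosis and Wnt lists), every member of lists of 8 or fewer, and fixed pathway and lineage genes. Genes outside it were chosen after their values were seen: Sparcl1, Fn1, Postn, Thbs3, Ccn1, Mt1, Mt4, Stfa1, Dcpp1, Krt10, Krt14, Krtdap, Mbp, Pmp22 and Mal.

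Alternatives changed the arrays fitted, the moderation, array weights, scaling, the row per gene, dim genes, a block, chromosome 6 and single arrays.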

Additional observations from a re-analysis of the deposited data

Results flagged for a closer look

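In 5 of 133 named genes and 2 of 48 list means, 1 of the 4 P21_KO arrays stood apart from the other 3 by Dixon's criterion, which chance alone meets in about 1 of 20 groups. Cdt1 read 3.55 on replicate 3, against 4.00 to 4.07 on the others. Hey2 read 4.58 on the same replicate, against 3.99 to 4.04. Efnb2 read 2.58 on replicate 1, against 2.80 to 2.82, and Tfap2b 7.88 there, against 7.40 to 7.48. Gadd45b read 10.3 on replicate 2, against 9.91 to 9.96. On replicate 2 the mean of the metallothionein and zinc transporter genes was 5.86, against 6.22 to 6.25, and the mean of the TGF-beta and BMP genes was 4.86, against 4.63 to 4.65.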

How the results depend on the processing

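With 2 P21_WT arrays the wild-type level is the weakest point. Leaving out 1 array gave 0 to 15 genes past limma's adjusted threshold and 964 to 1610 at an unadjusted p under 0.05. Thbs2 passed without P21_WT replicate 2 (limma adjusted p = 0.0467) and Syt4 without P21_KO replicate 1 (limma adjusted p = 0.0164), with adjusted p up to 0.854 and 0.854 under the other alternatives. The other alternatives called 0 genes. Leaving out dim genes gave 936 genes at an unadjusted p under 0.05, of 11912 tested. Alternatives that change only the moderation, the genes tested or the P4_WT arrays cannot change a difference. Where the P21 groups do not overlap, leaving out 1 P21 array cannot turn its direction. The count that follows was thus largely fixed in advance and is no measure of stability. Of 2781 values of the 133 named genes under the alternatives, 2768 kept their direction. Those that did not lay near 0: leaving out 1 array gave -0.94 to 0.27 for Braf, -0.23 to 0.0366 for Dusp6, -0.34 to 0.23 for Ngfr, -0.0045 to 0.19 for Sox10, -0.0107 to 0.25 for Mt1, -0.29 to 1.22 for Mt4, -0.19 to 0.22 for Dcpp1 and -0.27 to 0.10 for Krtdap. Leaving out 1 array also moved the differences of Bak1, Cdkn2d, Col4a2, Dnajb1, Dusp5, E2f3, Fn1, H1f5, Hes1, Hey2, Kit, Klf9, Krt14, Myo5a, Nr4a1, Postn, Slc45a2, Spred2, Spry2, Stfa1 and Tfap2b by over 1.5 times in the same direction. The same held for Cd63, Krt10, Mal, Map2k1, Mbp, Mt2, Pmp22 and Rasa1. The cause was not tested.

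The P21 groups share 2 replicate numbers, and the deviations of same-numbered arrays from their group means correlated at -0.04 and -0.01. With 2 P21_WT arrays their deviations mirror each other, so these values cannot show whether arrays of the same number were handled together. With the replicate block, 0 genes passed and 1209 were at an unadjusted p under 0.05 (53.9% of them higher, against 43.5% in the fit without it), the median of the melanin genes was -0.95, Ngfr turned to 0.32 and Mt4 to -1.04. Of 48 list medians, 20 changed sign under some alternative.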
